A study of Mus musculus with 24 samples.

Results

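The genes described here are the fibroblast growth factor (FGF) ligands, their receptors, and the genes that an FGF signal switches on or that hold it back, in mouse stem cell cultures and mouse hearts. Members were all rows of the gene-level array table whose single gene symbol was Fgf followed by a number, Fgfr1 to Fgfr4, Fgfrl1, Spry1 to Spry4, Spred1, Spred2, Dusp6, Etv4, Etv5 or Kl. The rule found 39 transcript clusters (the array's gene-level units) of 37 genes, among 35556 clusters in all and 19920 genes tested. They were 22 ligand genes, 5 receptor genes, 9 feedback and target genes, and Kl. For Fgfr1 and Fgfr2, 22 and 23 exon-level probe sets were added, of 241576 in the series.

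Total RNA of 12 samples was hybridised to Affymetrix mouse gene arrays, in 6 groups of 2 arrays. Of these groups 3 were cultures: embryonic stem (ES) cells, undifferentiated, on day 0, embryonic bodies (EB, aggregates of differentiating ES cells) on day 7, and cardiac bodies (CB) on day 14. Whole hearts made up the others, taken from embryos at E17.5, on postnatal day 1 (P1), and from adults. The sources used here do not give strain, genotype, the ES cell line or the age of the adults. The labels' protocol describes culture of ES cells toward cardiomyocytes in serum and dissection of E17.5 and P1 hearts. It does not name the adult hearts, whose samples also stand in a later, separate block of the series numbering. Whether their arrays were run apart is not said, and such a difference could not be told apart from age. Nothing says whether the 2 samples of a group were separate cultures or animals, so p-values measure only the spread between these samples, which may be technical.

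Levels are deposited log2 signals, with n = 2 arrays in each group, listed as replicate 1 and then replicate 2. Changes are differences of group means ± their standard error in the limma fit, and a gene was called, written as rose or fell, at a Benjamini-Hochberg adjusted p under 0.05 over all 19920 genes. Each call was recomputed under 18 alternatives, of which 12 leave out 1 array each. Array medians lay between 5.61 and 5.76, and a signal below them may be background, which was not tested. Of the 37 members, 30 reached the array medians in at least 1 group, and 7 (Fgf3, Fgf6, Fgf7, Fgf20, Fgf21, Kl and Spry3) did not. In whole cultures and hearts, fewer cells of a type and less RNA per cell cannot be told apart.

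Markers of other cells moved with the groups. The mean log2 signal of 11 cardiomyocyte markers was 5.39 to 5.40 in ES cells, 5.60 to 6.14 in EB, 10.88 to 11.28 in CB and 11.39 to 12.80 in hearts. That of 10 pluripotent cell markers was 10.40 to 10.41 in ES cells, 7.51 to 7.65 in EB, 9.50 to 9.78 in CB and 4.92 to 5.24 in hearts, so the CB arrays were high in both lists. Of the 10, 9 fell in EB against ES cells, and 8 rose in CB against EB. The 2 EB arrays differed: 5 erythroid markers averaged 9.67 and 5.59, and 8 fibroblast markers 7.86 and 6.0. The 2 adult arrays differed in genes of the heart's atria, named after their values were seen: Myl7, the atrial regulatory light chain, was at 5.42 and 11.27, Myl4 at 7.01 and 12.28, and Sln at 4.17 and 7.62. The part of these differences in the results below was not tested, except where values without an array are given.

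FGF ligands are secreted proteins that bind receptor tyrosine kinases on the cell surface together with heparan sulphate, and the receptors pass the signal mainly through the Ras, Raf, MEK and ERK kinases. ERK raises transcription of the ETS factors Etv4 and Etv5, of Dusp6, a phosphatase that dephosphorylates ERK, and of Sprouty and Spred proteins, which restrain the cascade. In ES cells autocrine Fgf4 drives exit from the pluripotent state. In the developing heart Fgf9, Fgf16 and Fgf20 are known as signals of the endocardium and epicardium to the myocardium, and Fgf10 as a signal of the second heart field. Fgf11 to Fgf14 are not secreted: these FGF homologous factors stay in the cell and bind voltage-gated sodium channels.

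Calls on members were spread over all 7 comparisons. In EB against ES cells, 5 of 37 members rose and 7 fell, where 12% of all genes rose and 8.61% fell. From EB to CB, 7 rose and 4 fell, against a background of 5.45% and 6.43% of all genes. In CB against ES cells, 3 rose and 3 fell (6.19% and 3.61% of all genes). Between E17.5 and P1 hearts 2 rose and none fell (2.08% and 3.05% of all genes). There limma gave an unadjusted p under 0.05 to 8 members, all higher at P1. The share of all genes at an unadjusted p under 0.05 was not counted, here or for the counts further below. From P1 to adult hearts, 4 rose and 4 fell (15.6% and 14.7% of all genes). Over the whole span from E17.5 to adult, 9 rose and 4 fell (18.1% and 18% of all genes). In CB against E17.5 hearts, 8 rose and 5 fell (12.1% and 11.6% of all genes). The median change of the 37 members stayed between -0.16 and 0.12 in every comparison, beside -0.05 to 0.05 over all genes.

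Of the 259 pairs of member and comparison, 65 were called, beside the shares of all genes given above for each comparison. In all 65 both arrays of the higher group lay above both of the lower. That was not counted over all genes, so it is not read as a trait of the members. The calls fell on 24 members. The other 13 were called nowhere: Dusp6, Fgf3, Fgf7, Fgf8, Fgf11, Fgf20 to Fgf23, Fgfr3, Fgfr4, Kl and Spry3. Comparisons that share a group (EB, CB, ES cells, E17.5, P1 or adult hearts) share its arrays, so opposite or like changes in them are not independent.

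**Figure D1:**
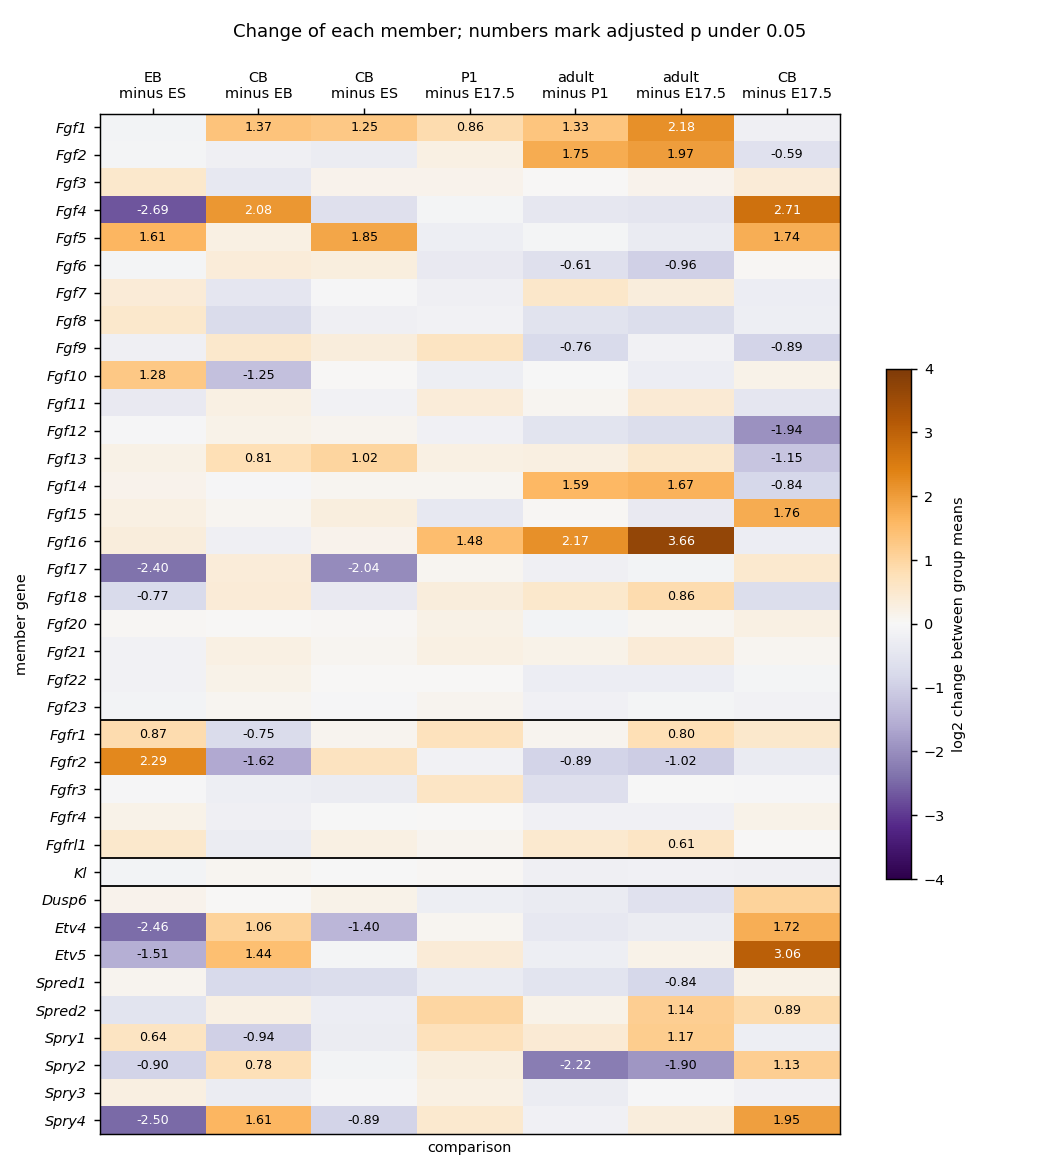
Log2 change between group means of each of the 37 members (rows, ordered as ligands, receptors, Kl, feedback and target genes) in the 7 comparisons (columns), 2 arrays per group; purple is lower and orange higher in the first-named group. Numbers are printed for the 65 changes with an adjusted p under 0.05, such as -2.69 for Fgf4 in EB minus ES and 3.66 for Fgf16 in adult minus E17.5 hearts.

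Among the ligands, Fgf4 and Fgf17 were highest in ES cells. Fgf4 had signals of 8.73 and 8.71 in ES cells, 5.88 and 6.19 in EB, 8.09 and 8.13 in CB, 5.09 and 5.69 in E17.5 hearts, 5.23 and 5.40 in P1 hearts, and 5.20 and 4.62 in adult hearts. It was high in ES cells and CB, near the array medians in EB and near or below them in the hearts, with no overlap between those sets. Fgf4 fell by 2.69 ± 0.24 in EB (adjusted p = 7.39e-06), a 6.45-fold lower signal, rose by 2.08 ± 0.24 from EB to CB (adjusted p = 0.000107), and was 2.71 ± 0.24 higher in CB than in E17.5 hearts (adjusted p = 7.42e-06). These 3 calls held in all 18 alternatives. The difference between CB and ES cells, -0.61 ± 0.24, was not called (adjusted p = 0.145).

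Fgf17, a ligand of the Fgf8 subfamily, was at 7.69 and 7.81 in ES cells, 5.14 and 5.56 in EB, 5.72 and 5.70 in CB, 5.11 and 5.32 at E17.5, 5.26 and 5.34 at P1, and 5.05 and 5.14 in adults. Only the ES arrays stood clear of the array medians. Fgf17 fell by 2.40 ± 0.18 in EB (adjusted p = 2.5e-06) and still differed by -2.04 ± 0.18 in CB from ES cells (adjusted p = 1.38e-05). Its difference between CB and EB, 0.36, was not called (adjusted p = 0.269). The pluripotent cell markers moved with Fgf4 in their direction, falling in EB and rising in CB, and the part of pluripotent cells in the Fgf4 values was not tested.

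The promoter of Fgf4 is shown because its signal changed most among the ligands of the cultures, beside that of Fgfr2, which changed most among the receptors, and of Fgf2, which passed the array medians only in adult hearts. Each is the 250 bases before the annotated start, from RefSeq on build GRCm38.p6, 5′ to 3′ on the gene's strand. Capitals mark matches, on either strand, to the ETS core CCGGAA, to ATGCAAAT (the octamer), to the TATA box TATAAA, to its variant form TATATA, or to the GC box GGGCGG. Neighbouring matches to the variant form overlap. The positions are chr7:144861136-144861385 (+ strand) for Fgf4, chr7:130266809-130267058 (- strand) for Fgfr2 and chr3:37348403-37348652 (+ strand) for Fgf2.
Fgf4: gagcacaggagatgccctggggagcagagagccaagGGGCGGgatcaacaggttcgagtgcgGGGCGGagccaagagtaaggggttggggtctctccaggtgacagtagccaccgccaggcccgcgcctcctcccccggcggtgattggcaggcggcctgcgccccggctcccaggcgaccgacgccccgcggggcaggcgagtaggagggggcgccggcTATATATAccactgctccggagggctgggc
Fgfr2: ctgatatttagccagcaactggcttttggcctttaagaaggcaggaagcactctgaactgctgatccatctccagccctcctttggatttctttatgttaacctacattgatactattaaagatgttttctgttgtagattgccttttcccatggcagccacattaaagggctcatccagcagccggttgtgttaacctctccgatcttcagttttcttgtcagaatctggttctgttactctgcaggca
Fgf2: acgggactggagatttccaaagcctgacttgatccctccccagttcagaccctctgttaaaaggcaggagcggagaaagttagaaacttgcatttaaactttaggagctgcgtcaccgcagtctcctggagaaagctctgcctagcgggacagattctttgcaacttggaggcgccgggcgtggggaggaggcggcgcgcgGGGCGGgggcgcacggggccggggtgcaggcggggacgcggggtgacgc
The Fgf4 window held 2 GC boxes and 2 overlapping matches to the TATA variant, the nearer beginning 28 bases before the start, and the Fgf2 window held 1 GC box. The Fgfr2 window held none of the 5 motifs. It had 2 CpG dinucleotides, the Fgf4 window 21 and the Fgf2 window 20, beside a median of 6 over 32851 mouse promoters.

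A promoter of this kind was at hand for 27 of the 37 members, 35 promoters in all. GC boxes occurred in 65.7% of these, against 32.7% of all 32851 promoters, and in 19 of the 27 genes. The ETS core, the sequence that Etv4 and Etv5 bind, occurred in 11.4% of them (Fgf12, Fgf5, Fgfr4 and Fgfrl1) and in 12% of all promoters. The TATA variant was found in 5.2% of all promoters and, among the members, in Fgf4 only. The TATA box was found in 12.4% of all and, among the members, in Fgf21 only. The octamer, which Oct4 binds, was in 1.6% of all promoters and in 0 of these 35. These matches describe the letters of a window and say nothing of binding.

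Fgf5 and Fgf10 rose in EB. Fgf5, a marker ligand of the early epiblast, was at 5.23 and 5.54 in ES cells, 6.84 and 7.16 in EB, 7.14 and 7.34 in CB, 5.59 and 5.42 at E17.5, 5.26 and 5.27 at P1, and 5.36 and 4.98 in adults. Both differentiated cultures lay above all other arrays. Fgf5 rose by 1.61 ± 0.20 in EB (adjusted p = 9.04e-05), was 1.85 ± 0.20 higher in CB than in ES cells (adjusted p = 6.57e-05), and was 1.74 ± 0.20 higher in CB than in E17.5 hearts (adjusted p = 5.56e-05). Fgf10 was at 5.06 and 5.05 in ES cells, 6.17 and 6.50 in EB, 4.98 and 5.19 in CB, 4.71 and 5.11 at E17.5, 4.63 and 4.69 at P1, and 4.53 and 4.77 in adults. Only in EB did it exceed the array medians, rising by 1.28 ± 0.19 (adjusted p = 0.000437) and it fell by 1.25 ± 0.19 from EB to CB (adjusted p = 0.001). The 5 calls on these ligands held in all 18 alternatives.

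Fgf15, the mouse counterpart of human FGF19, was at 7.30 and 7.58 in ES cells, 8.39 and 6.95 in EB, 7.95 and 7.55 in CB, 5.85 and 6.14 at E17.5, 5.13 and 6.06 at P1, and 5.47 and 5.80 in adults. All culture arrays lay above all heart arrays, and the EB pair was the widest. It was 1.76 ± 0.40 higher in CB than in E17.5 hearts (adjusted p = 0.00657), a call that was lost without CB replicate 1 or E17.5 replicate 1 (adjusted p up to 0.0625).

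Fgf1, Fgf2 and Fgf16 rose toward the adult heart. Fgf1, a ligand that binds all FGF receptors, was at 5.98 and 6.27 in ES cells, 6.11 and 5.90 in EB, 7.48 and 7.27 in CB, 7.68 and 7.50 at E17.5, 8.60 and 8.29 at P1, and 9.82 and 9.72 in adults. The heart groups did not overlap, and CB lay next to E17.5. It rose by 1.37 ± 0.19 from EB to CB (adjusted p = 0.000426), 0.86 ± 0.19 from E17.5 to P1 (adjusted p = 0.0197), and 1.33 ± 0.19 from P1 to adult (adjusted p = 0.000208). From E17.5 to adult the rise was 2.18 ± 0.19 (adjusted p = 3.01e-06), a 4.55-fold higher signal. Fgf1 was also 1.25 ± 0.19 higher in CB than in ES cells (adjusted p = 0.000963). That call and the one from E17.5 to P1 were lost with the median of the exon-level probe sets as the gene's level (0.74, adjusted p = 0.102, and 0.93, adjusted p = 0.064), and the second also without either E17.5 array (adjusted p up to 0.172). Between CB and E17.5 hearts the difference of -0.21 was not called (adjusted p = 0.502).

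Fgf16, a ligand made by cardiomyocytes after birth, had the largest change of any member. Its signals were 4.07 and 4.62 in ES cells, 4.48 and 4.89 in EB, 4.56 and 4.39 in CB, 4.58 and 4.90 at E17.5, 6.29 and 6.16 at P1, and 8.50 and 8.29 in adults. Every culture and E17.5 array was below the array medians, every P1 and adult array above them. Fgf16 rose by 1.48 ± 0.22 from E17.5 to P1 (adjusted p = 0.00192), by 2.17 ± 0.22 from P1 to adult (adjusted p = 2.12e-05), and by 3.66 ± 0.22 over both steps (adjusted p = 2.12e-07), a 12.6-fold higher signal. All 3 calls held in all 18 alternatives.

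Fgf2, the basic FGF, was at 4.43 and 4.36 in ES cells, 4.24 and 4.37 in EB, 4.15 and 4.05 in CB, 4.53 and 4.85 at E17.5, 5.07 and 4.75 at P1, and 6.77 and 6.55 in adults. Its adult arrays were the only ones above the array medians. The rise from P1 was 1.75 ± 0.18 (adjusted p = 2.57e-05) and from E17.5 1.97 ± 0.18 (adjusted p = 5.54e-06), and both held in all 18 alternatives. In CB it differed by -0.59 ± 0.18 from E17.5 hearts, toward lower values (adjusted p = 0.0346); both groups were below the medians, and the call was lost without either ES array, either CB array or E17.5 replicate 2 (adjusted p up to 0.253). Macrophage markers were higher in adults (mean of 6 genes 6.82 to 6.97, against 5.67 to 5.77 at E17.5 and P1), with 5 of 6 called, and 5 of 6 epicardium markers fell from E17.5 to adult, with list means of 8.27 to 8.28 and then 6.59 to 6.73. The part of these cells in the adult values was not tested.

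Fgf9 and Fgf18 gave smaller changes. Fgf9 was at 5.72 and 5.73 in ES cells, 5.38 and 5.66 in EB, 6.14 and 5.95 in CB, 6.92 and 6.95 at E17.5, 7.72 and 7.43 at P1, and 6.85 and 6.77 in adults, highest in the P1 arrays. It fell by 0.76 ± 0.17 from P1 to adult (adjusted p = 0.00538) and was lower in CB than in E17.5 hearts, by a difference of -0.89 ± 0.17 (adjusted p = 0.00254). Its rise from E17.5 to P1, 0.64 ± 0.17, was just short of a call (adjusted p = 0.0571). Of its 8 exon-level probe sets 6 were lower in adults than at P1, and the median of their changes was -0.77. With each array's median signal over the 8, fitted as an alternative, the change after P1 was -0.03 (adjusted p = 0.942) and the difference in CB -0.44 (adjusted p = 0.194), so neither call held there.

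Fgf18 was at 6.71 and 7.05 in ES cells, 6.22 and 6.0 in EB, 6.69 and 6.33 in CB, 7.04 and 7.33 at E17.5, 7.19 and 7.86 at P1, and 7.95 and 8.14 in adults. The adult arrays were the highest and the EB arrays the lowest. It rose by 0.86 ± 0.24 from E17.5 to adult (adjusted p = 0.0138) and fell by 0.77 ± 0.24 in EB against ES cells (adjusted p = 0.0394). The first call was lost without E17.5 replicate 1 or adult replicate 2 and with the exon-level median (adjusted p up to 0.114). The second held in 9 of 18 alternatives; it was lost with the exon-level median (-0.36, adjusted p = 0.544) and without either array of the ES, EB, E17.5 or adult groups, over changes of -0.94 to -0.36.

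**Figure D2:**
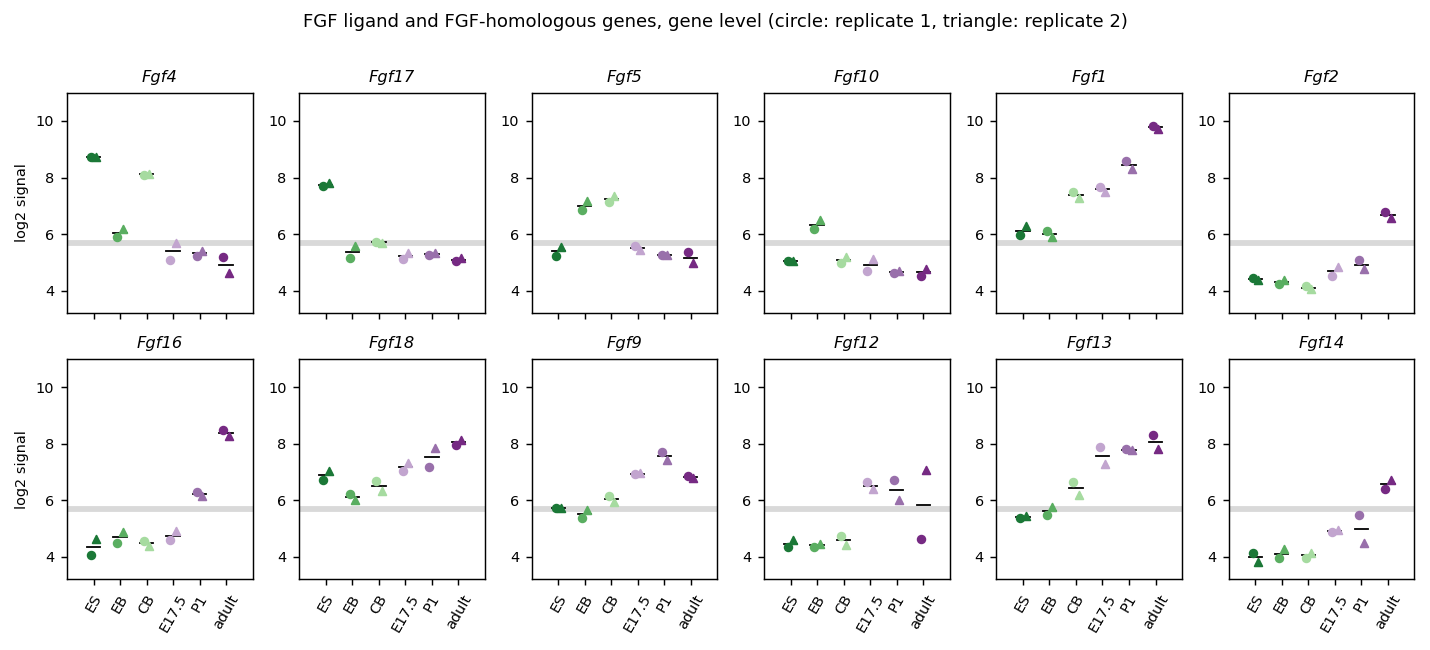
Log2 signal of 12 ligand and FGF homologous factor genes in the 12 arrays (circles replicate 1, triangles replicate 2, black bars group means, n = 2); the grey band spans the array medians, 5.61 to 5.76. Fgf4 is high in ES and CB, Fgf1 and Fgf16 climb through the heart groups, and the 2 adult arrays of Fgf12 lie at 4.63 and 7.06.

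Of the 4 FGF homologous factors, Fgf11, Fgf13 and Fgf14 had higher signals in adult hearts than in any culture, a difference that was not tested. Fgf13, which tunes the cardiac sodium channel in mouse heart muscle, was at 5.37 and 5.45 in ES cells, 5.48 and 5.76 in EB, 6.66 and 6.20 in CB, 7.87 and 7.28 at E17.5, 7.82 and 7.77 at P1, and 8.32 and 7.83 in adults. The order was ES cells and EB below CB, and CB below every heart array. It rose by 0.81 ± 0.24 from EB to CB (adjusted p = 0.0496) and was 1.02 ± 0.24 higher in CB than in ES cells (adjusted p = 0.0182). Against E17.5 hearts it was lower in CB, at -1.15 ± 0.24 (adjusted p = 0.00422). The first of these calls held in 10 of 18 alternatives and was lost without either array of the ES, EB or CB groups, with an intensity trend and with uncollapsed clusters (adjusted p up to 0.36). The second was lost without either ES array or CB replicate 1 (up to 0.202), and the third without CB replicate 2 or E17.5 replicate 1 (up to 0.0632). The cardiomyocyte markers rose from EB to CB too, and the part of muscle cell number in the Fgf13 values was not tested.

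Fgf14 was at 4.13 and 3.83 in ES cells, 3.95 and 4.27 in EB, 3.97 and 4.15 in CB, 4.87 and 4.93 at E17.5, 5.49 and 4.49 at P1, and 6.41 and 6.73 in adults. Adult arrays alone were above the array medians. The rise was 1.59 ± 0.28 from P1 (adjusted p = 0.00094) and 1.67 ± 0.28 from E17.5 (adjusted p = 0.000465), in all 18 alternatives. It was lower in CB than at E17.5, at -0.84 ± 0.28 (adjusted p = 0.0447), a call between signals below the medians that held in 9 of 18 alternatives. It was lost with the replicate block (adjusted p = 0.0577) and without either array of the ES, CB, E17.5 or adult groups (up to 0.187).

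Fgf12 was at 4.33 and 4.59 in ES cells, 4.35 and 4.46 in EB, 4.73 and 4.43 in CB, 6.65 and 6.39 at E17.5, 6.70 and 6.02 at P1, and 4.63 and 7.06 in adults. Cultures and hearts did not overlap apart from adult replicate 1, which lay at the culture level. In CB it was lower than in E17.5 hearts, at -1.94 ± 0.54 (adjusted p = 0.0199), a call lost without any 1 of the 4 arrays compared (adjusted p up to 0.131). The adult gap was also seen at exon level: in 7 of 10 Fgf12 probe sets replicate 1 was lower than replicate 2, by -2.02 to -4.68, and in the other 3 the gap ran from -0.15 to 0.59. In the same array Myl7, Myl4, Sln, Nppa (10.10 against 12.79) and Dkk3 (6.42 against 9.30) were lower too, while Hcn4 (6.85 and 6.87) and Kcnj3 (8.89 and 9.22) were near equal. The part of atrial tissue in the Fgf12 gap was not tested. Fgf11, the remaining homologous factor, ran from 5.14 in EB to 6.24 in adults. It was called nowhere, but no comparison sets adult hearts against a culture.

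Without adult replicate 1, 8 of the 65 calls were lost, 3 of them on comparisons of adult hearts: Fgfr2 against P1 (-0.73, adjusted p = 0.066), and Fgfrl1 (0.53, adjusted p = 0.136) and Spred1 (-0.70, adjusted p = 0.127) against E17.5. Fgf1 (2.13), Fgf2 (1.86), Fgf14 (1.83) and Fgf16 (3.55) were still higher in adults than at E17.5 without that array, each still called. Without adult replicate 2, the adult calls lost were Fgf6 against P1 (-0.40, adjusted p = 0.268), and Fgf18 (0.76, adjusted p = 0.0849), Fgfr1 (0.75, adjusted p = 0.0662) and Fgfrl1 (0.68, adjusted p = 0.0623) against E17.5.

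The remaining ligands were low or varied between replicates. Fgf6, a ligand of skeletal muscle, stayed below the array medians in every group: 4.72 and 4.47 in ES cells, 4.46 and 4.57 in EB, 5.10 and 4.67 in CB, 4.75 and 4.91 at E17.5, 4.38 and 4.58 at P1, and 4.08 and 3.66 in adults. It was called lower in adults than at P1 (-0.61 ± 0.21, adjusted p = 0.0409) and at E17.5 (-0.96 ± 0.21, adjusted p = 0.00291), on signals that may be background. The first call held in 10 of 17 alternatives and was lost without either ES or E17.5 array, P1 replicate 2 or adult replicate 2 and with the exon-level median (adjusted p up to 0.268). The group means of Fgf3, Fgf7, Fgf20 and Fgf21 lay between 4.23 and 5.69. Fgf22 and Fgf23, the latter a hormone of bone that acts on the kidney, ranged over 0.28 and 0.32 between their lowest and highest group means. Fgf8, a signal of the gastrula and of the second heart field, was at 6.97 and 8.22 in the EB arrays and between 6.28 and 7.30 in all others, with no call. Kl, the coreceptor that lets Fgf23 act, was between 3.86 and 4.36 in all 12 arrays.

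Among the receptors, Fgfr2 changed most. This receptor tyrosine kinase was at 5.48 and 5.54 in ES cells, 8.10 and 7.51 in EB, 6.05 and 6.31 in CB, 6.44 and 6.60 at E17.5, 6.47 and 6.32 at P1, and 5.33 and 5.67 in adults. The EB arrays were clear of all others, and ES cells and adult hearts shared the lowest signals. Fgfr2 rose by 2.29 ± 0.21 in EB (adjusted p = 1.15e-05), a 4.9-fold higher signal, and fell by 1.62 ± 0.21 from EB to CB (adjusted p = 0.00033). In adult hearts it fell by 0.89 ± 0.21 from P1 (adjusted p = 0.00716), which 1 array decided as given above, and fell by 1.02 ± 0.21 from E17.5 (adjusted p = 0.0024). Epithelial markers moved with it across the cultures: 6 of 8 rose in EB and 7 of 8 fell from EB to CB, with list means of 7.40 to 7.59 in ES cells, 9.96 to 10.14 in EB and 7.19 to 7.44 in CB. Endothelium markers took a like course: 6 of 8 rose in EB and 6 of 8 fell from EB to CB, with 1 the other way each time. Of 5 erythroid markers 4 rose and then 3 fell. The part of any of these cells in the Fgfr2 values was not tested.

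Fgfr1, the FGF receptor typical of mesenchyme, was at 7.74 and 7.93 in ES cells, 8.86 and 8.55 in EB, 7.78 and 8.13 in CB, 7.32 and 7.54 at E17.5, 7.84 and 8.40 at P1, and 8.18 and 8.27 in adults. Signals were above the array medians throughout, highest in EB and lowest at E17.5. Fgfr1 rose by 0.87 ± 0.22 in EB (adjusted p = 0.0129), fell by 0.75 ± 0.22 from EB to CB (adjusted p = 0.0437), and rose by 0.80 ± 0.22 from E17.5 to adult (adjusted p = 0.0126). The first call was lost without ES replicate 1, without EB replicate 1 and with the exon-level median (adjusted p up to 0.136). The second held in 6 of 18 alternatives and was lost with quantile normalization, with the exon-level median and without any 1 of the ES, EB, CB, E17.5 or adult arrays (changes of -0.93 to -0.55, adjusted p up to 0.31). The third was lost without E17.5 replicate 1 or adult replicate 2 (adjusted p up to 0.0976).

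Fgfrl1, a receptor-like protein without a kinase domain, was at 7.25 and 7.13 in ES cells, 7.90 and 7.52 in EB, 7.51 and 7.33 in CB, 7.40 and 7.45 at E17.5, 7.32 and 7.76 at P1, and 8.10 and 7.96 in adults, the adult arrays being highest. It rose by 0.61 ± 0.20 from E17.5 to adult (adjusted p = 0.0298), a call lost with the exon-level median and without any 1 of the 4 arrays compared (adjusted p up to 0.192). Fgfr3 (group means 6.11 to 6.78) and Fgfr4 (5.54 to 6.05) were called nowhere.

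At exon level most of Fgfr2 moved. Of its 23 probe sets, 20 were at least 1 higher in EB than in ES cells, with a median change of 2.24, and 20 were at least 1 lower in CB than in EB, with a median of -1.65. In adult hearts 14 of the 23 were at least 1 lower than at P1 (median -1.16), and 14 than at E17.5 (median -1.30). Probe sets 10568438 and 10568446 did not follow: they changed by -0.08 and -0.09 in EB, and in adult hearts both were higher than at E17.5, by 1.23 and 1.41, at signals far below the exon-level medians. Fgfr1 moved less: the median of its 22 probe sets was 0.81 in EB against ES cells, where 4 were at least 1 higher, and 0.86 in adult against E17.5 hearts, where 6 were.

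**Figure D3:**
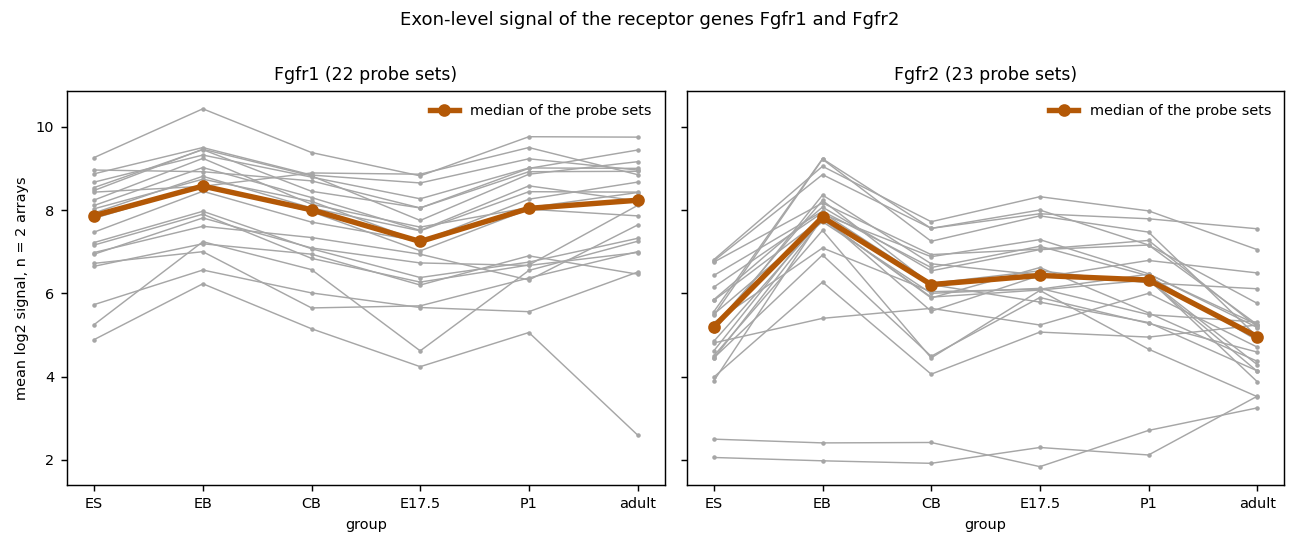
Mean log2 signal (n = 2 arrays) of every exon-level probe set of Fgfr1 (22) and Fgfr2 (23) in the 6 groups, each grey line 1 probe set and the orange line the median of the gene's probe sets. Of the Fgfr2 lines, 20 of 23 go up by at least 1 from ES to EB and 20 go down by at least 1 from EB to CB; the 2 lowest Fgfr2 lines stay flat near the bottom in the cultures.

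Both receptor genes are spliced into variants with different ligand binding. To compare probe sets within a gene, the splicing index was used, a probe set's log2 signal minus that of its gene. A call needed a change of 1 or more and an adjusted p under 0.05, in genes whose level reached the gene-level median in both groups. The probe set itself also had to reach the exon-level median in at least 1 of the groups compared. Fgfr2 was under the gene-level median in ES cells and adult hearts, so none of its probe sets could be tested in comparisons with them. Where it could be tested, 0 of 19 probe sets were called from EB to CB, 0 of 12 from E17.5 to P1 and 0 of 11 in CB against E17.5 hearts, and 0 of each had an unadjusted limma p under 0.05. For Fgfr1, 0 of 21 were called in EB against ES cells and from EB to CB, 0 of 20 in CB against ES cells, and 0 of 19 from E17.5 to P1 and in CB against E17.5 hearts. In these 5 comparisons 2, 1, 2, 3 and 1 of them had an unadjusted limma p under 0.05. Over all tested probe sets the called share was 0.0763% in EB against ES cells, 0.0319% from EB to CB, 0.157% in CB against ES cells, 0% from E17.5 to P1 and 0.315% in CB against E17.5 hearts.

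In the adult heart 2 calls were made, both on Fgfr1. Probe set 10570984 was at 5.88 and 6.66 at E17.5, 6.52 and 6.85 at P1, and 8.12 and 8.10 in adults. Its index rose by 1.32 ± 0.37 from P1 to adult (adjusted p = 0.045), 1 of 21 tested, beside 13.5% of all tested probe sets. Probe set 10570998 was at 4.55 and 4.69 at E17.5, 6.27 and 6.82 at P1, and 7.21 and 7.28 in adults. Its index rose by 1.83 ± 0.38 from E17.5 to adult (adjusted p = 0.0134), 1 of 20 tested, beside 16.6% of all. Both shares are below the background, which itself was 0% to 0.315% in the comparisons without adult hearts. Why it was higher with adult hearts was not tested. The first call was lost with the replicate block, with no level filter, and with the median of the gene's other probe sets as base. It was also lost without any 1 of the EB, CB, E17.5, P1 or adult arrays. Without P1 replicate 2 another Fgfr1 probe set, 10570985, was called in its place. With no level filter, Fgfr1 probe set 10570992 and Fgfr2 probe set 10568438 were called in its place. The second was lost with the level filter at the 70th percentile and without either E17.5 array or adult replicate 1.

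The 3 probe sets with the widest range of the index over the 6 groups were, for Fgfr1, 10570992 (3.15), 10570998 (1.83) and 10570986 (1.56). For Fgfr2 they were 10568438 (3.86), 10568446 (3.14) and 10568460 (2.01). Probe set 10570992 was at 4.19 and 4.29 at E17.5 and 2.72 and 2.48 in adults, where the gene itself rose. Probe sets 10568438 and 10568446 stayed between 1.70 and 4.09 in all arrays, far below the exon-level medians of 6.40 to 6.53, while the gene's own group means ranged over 2.30. Where in the gene these probe sets lie was not analysed here.

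Of the feedback and target genes as tested, Spry4, Etv4 and Etv5 changed most in EB against ES cells and from EB to CB. Their group means were highest in ES cells, though the Etv5 arrays there overlapped those of CB. Spry4, a Sprouty inhibitor, was at 9.80 and 9.75 in ES cells, 7.14 and 7.40 in EB, 8.62 and 9.14 in CB, 7.07 and 6.78 at E17.5, 7.27 and 7.56 at P1, and 7.36 and 7.14 in adults. ES cells were highest, CB next, and EB lay among the hearts. The pluripotent cell markers had the same order of groups in the cultures, and their part in the values of Spry4, Etv4 and Etv5 was not tested. Spry4 fell by 2.50 ± 0.21 in EB (adjusted p = 5.79e-06), rose by 1.61 ± 0.21 from EB to CB (adjusted p = 0.000327), and was 1.95 ± 0.21 higher in CB than at E17.5 (adjusted p = 3.98e-05). The remaining difference of CB from ES cells, -0.89 ± 0.21, was called (adjusted p = 0.0174), but not without either ES array or CB replicate 1 (adjusted p up to 0.213).

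Etv4, an ETS transcription factor, was at 8.44 and 8.76 in ES cells, 5.92 and 6.35 in EB, 7.26 and 7.13 in CB, 5.52 and 5.42 at E17.5, 5.45 and 5.68 at P1, and 5.09 and 5.28 in adults. The cultures did not overlap each other or the hearts, whose signals were near or below the array medians. It fell by 2.46 ± 0.20 in EB (adjusted p = 3.54e-06), rose by 1.06 ± 0.20 from EB to CB (adjusted p = 0.00353), differed by -1.40 ± 0.20 in CB from ES cells (adjusted p = 0.000546), and was 1.72 ± 0.20 higher in CB than at E17.5 (adjusted p = 5.53e-05). All 4 calls held in all 18 alternatives.

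Etv5, the close relative of Etv4, is measured by 2 transcript clusters. The brighter one has in every array the value of a single exon-level probe set, 10363902, and whether it also matches another locus was not tested. Etv5 has 12 other exon-level probe sets. The brighter cluster, 10363901, used in the tests, was at 9.64 and 9.90 in ES cells, 8.30 and 8.21 in EB, 9.80 and 9.59 in CB, 6.87 and 6.41 at E17.5, 6.64 and 7.41 at P1, and 6.68 and 6.93 in adults. CB and ES cells were at like signals here, and all hearts lower. It fell by 1.51 ± 0.25 in EB (adjusted p = 0.000853), rose by 1.44 ± 0.25 from EB to CB (adjusted p = 0.00234), and was 3.06 ± 0.25 higher in CB than at E17.5 (adjusted p = 4.65e-06). The other cluster, 10438626, was at 8.93 and 9.0 in ES cells, 7.77 and 7.53 in EB, and 8.25 and 8.39 in CB. When every cluster was tested, among 21789, it fell by 1.32 in EB (adjusted p = 0.00372) and was 2.44 higher in CB than at E17.5 (adjusted p = 5.1e-05), while its change of 0.67 from EB to CB was not called (adjusted p = 0.141). So 1 cluster gave a call on the return of Etv5 in CB and the other did not, and their difference was not tested. The call was also lost with the median over all 13 exon-level probe sets (0.97, adjusted p = 0.0807).

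Spry2 was the feedback gene that changed most after birth. It was at 9.42 and 9.67 in ES cells, 8.49 and 8.80 in EB, 9.20 and 9.65 in CB, 8.32 and 8.27 at E17.5, 8.34 and 8.88 at P1, and 6.58 and 6.20 in adults. The adult arrays lay below every other array. Spry2 fell by 2.22 ± 0.23 from P1 to adult (adjusted p = 2.61e-05), a 4.65-fold lower signal, and fell by 1.90 ± 0.23 from E17.5 to adult (adjusted p = 4.61e-05), in all 18 alternatives. In the cultures it fell by 0.90 ± 0.23 in EB (adjusted p = 0.0152), rose by 0.78 ± 0.23 from EB to CB (adjusted p = 0.0488), and was 1.13 ± 0.23 higher in CB than at E17.5 (adjusted p = 0.00369). The EB fall was lost without ES replicate 2 or EB replicate 1 (adjusted p up to 0.126), and the difference from E17.5 without CB replicate 2 (0.0572). The rise in CB held in 6 of 18 alternatives and was lost with the exon-level median, with uncollapsed clusters and without any 1 of the ES, EB, CB, E17.5 or adult arrays (adjusted p up to 0.32).

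Spry1 ran the other way. It was at 6.96 and 6.98 in ES cells, 7.40 and 7.82 in EB, 6.66 and 6.67 in CB, 6.88 and 6.94 at E17.5, 7.38 and 7.90 at P1, and 8.11 and 8.04 in adults. Adult arrays were highest and CB arrays lowest. Spry1 rose by 1.17 ± 0.20 from E17.5 to adult (adjusted p = 0.000639), where Spry2 fell, and this held in all 18 alternatives. It rose by 0.64 ± 0.20 in EB (adjusted p = 0.0401) and fell by 0.94 ± 0.20 from EB to CB (adjusted p = 0.00849). The rise in EB held in 8 of 18 alternatives and was lost with quantile normalization (0.47, adjusted p = 0.149), without either array of the ES, CB, E17.5 or adult groups, and without EB replicate 2 (adjusted p up to 0.271). The fall in CB was lost without EB replicate 2 or either CB array and with the exon-level median (up to 0.0792). Spry3, a Sprouty gene of low signal, lay between 3.42 and 4.04 in all arrays.

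**Figure D4:**
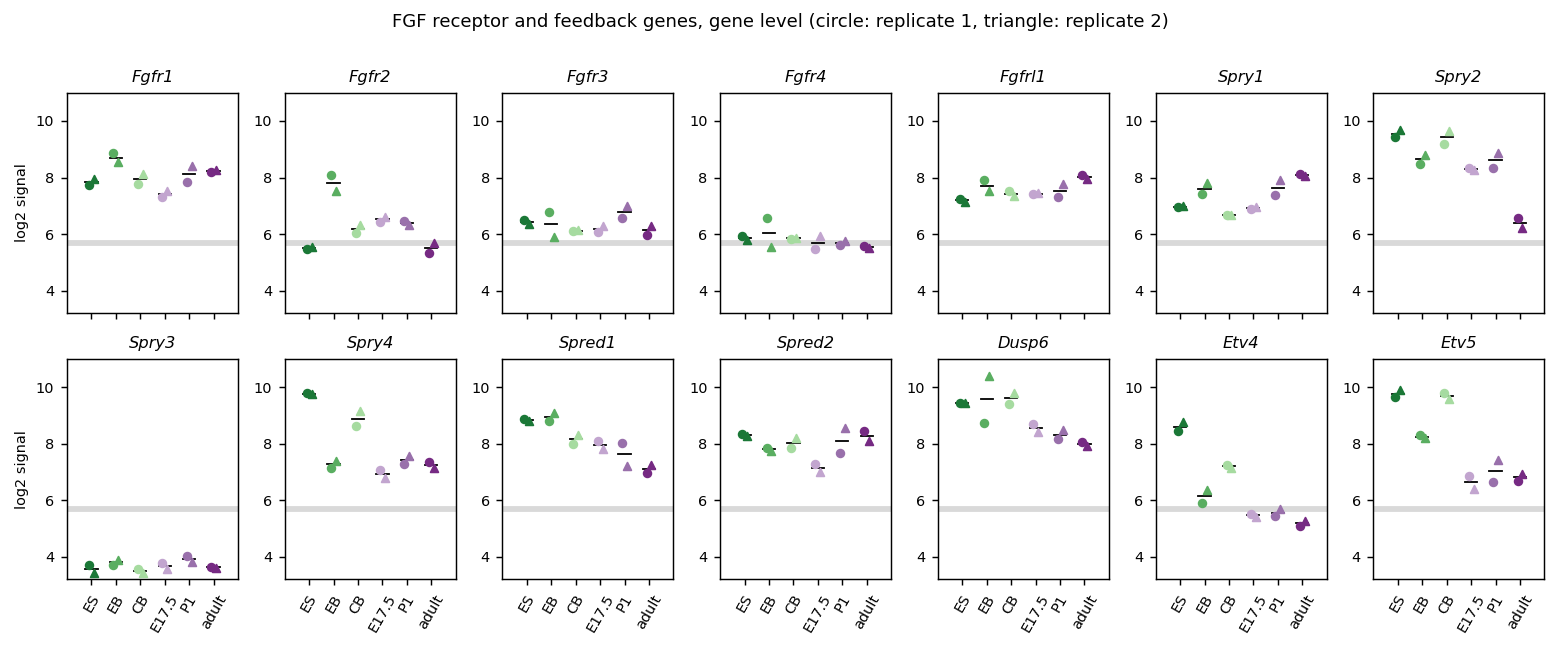
Log2 signal of the 5 receptor genes and the 9 feedback and target genes in the 12 arrays (circles replicate 1, triangles replicate 2, black bars group means, n = 2), with the array medians as a grey band. Fgfr2 peaks in EB at 8.10 and 7.51, Spry4, Etv4 and Etv5 are lowest among the cultures in EB, and Spry2 drops to 6.58 and 6.20 in the adult arrays.

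Spred1 and Spred2 are membrane inhibitors of Ras and Raf signalling. From E17.5 to adult Spred1 fell and the brighter Spred2 cluster rose, while the other Spred2 cluster, described below, did not rise. Spred1 was at 8.86 and 8.81 in ES cells, 8.80 and 9.07 in EB, 7.99 and 8.31 in CB, 8.09 and 7.82 at E17.5, 8.04 and 7.21 at P1, and 6.96 and 7.25 in adults. It fell by 0.84 ± 0.25 from E17.5 to adult (adjusted p = 0.0198), a call lost without E17.5 replicate 1, without adult replicate 1 and with the exon-level median (adjusted p up to 0.138). Spred2 (cluster 10374455) was at 8.34 and 8.29 in ES cells, 7.86 and 7.75 in EB, 7.86 and 8.20 in CB, 7.28 and 6.99 at E17.5, 7.67 and 8.54 at P1, and 8.45 and 8.11 in adults. It was lowest at E17.5 and rose by 1.14 ± 0.26 to the adult (adjusted p = 0.00391). It was also 0.89 ± 0.26 higher in CB than at E17.5 (adjusted p = 0.0235), which was lost without CB replicate 2 or either E17.5 array (adjusted p up to 0.19).

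The rise of Spred2 in adults depended on the transcript cluster. Its other cluster, 10374464, was at 6.99 and 7.11 at E17.5, 7.46 and 8.14 at P1, and 6.24 and 6.67 in adults. With every cluster tested, it fell by 1.35 ± 0.24 from P1 to adult (adjusted p = 0.00118) where the brighter cluster changed by 0.17, and differed by -0.60 from E17.5 to adult (adjusted p = 0.0727) where the brighter one rose. Of the 9 Spred2 probe sets at exon level, 8 changed by -0.23 to 1.28 from P1 to adult. The last, 10374465, changed by -1.35, but it has the values of cluster 10374464 in every array, so it is the same measurement.

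Dusp6 showed no call, with group means from 7.99 to 9.60. Its EB arrays were at 8.74 and 10.40, and the other arrays ran from 9.39 to 9.81 in ES cells and CB and from 7.93 to 8.69 in hearts. The difference of CB from E17.5 hearts, 1.04 ± 0.39, was not called (adjusted p = 0.074).

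The EB replicates lay far apart for several members. Of the 37, 5 (13.5%) differed by more than 1 between the EB arrays, beside 2.75% of all genes: Dusp6 and Fgf8 were lower in replicate 1, and Fgf15, Fgf3 (6.22 and 5.17) and Fgfr4 (6.56 and 5.54) higher. Replicate 1 is the array in which the erythroid, fibroblast and endoderm lists were higher (endoderm 6.27 against 5.50) and the endothelium list lower (6.87 against 7.71). Their part in these gaps was not tested. Between the P1 arrays 5.4% of all genes differed by more than 1, and between the adult arrays 1.28% did, with Fgf12 as the only member there.

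**Figure D5:**
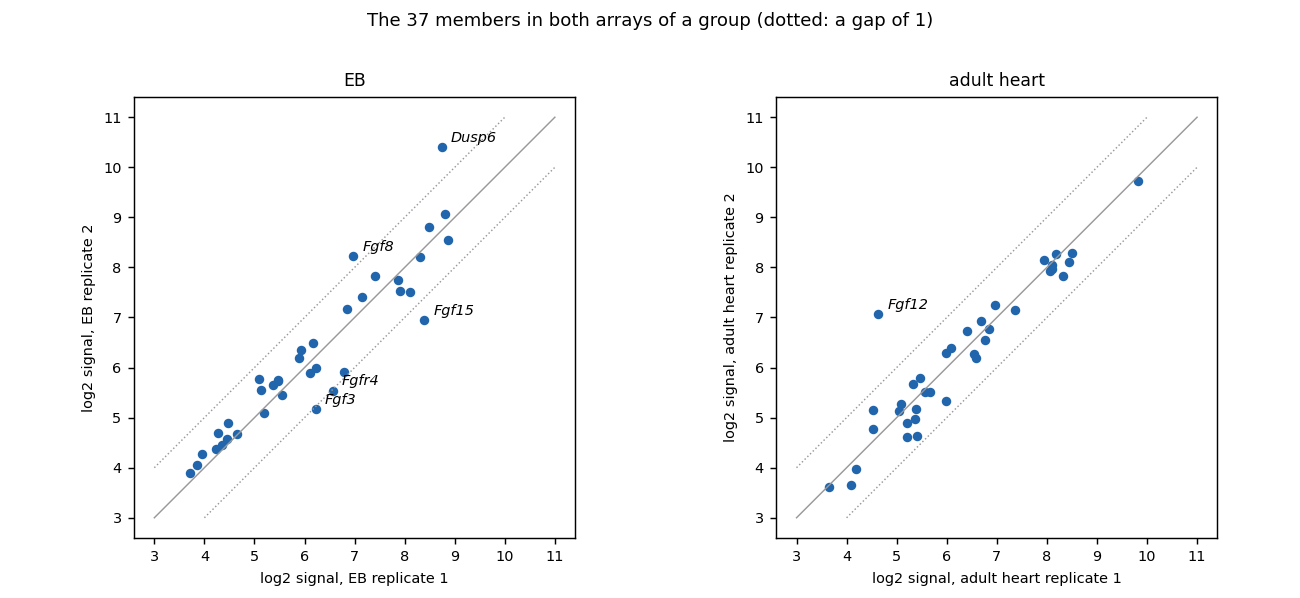
Log2 signal of the 37 members in replicate 1 (horizontal) against replicate 2 (vertical) for the EB arrays (left) and the adult heart arrays (right); the solid line marks equal signals and the dotted lines a gap of 1. Dusp6, Fgf8, Fgf15, Fgf3 and Fgfr4 lie outside the dotted lines in EB, and Fgf12 in the adult heart.

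Genes that work beside FGF ligands and receptors were followed in 3 lists, with calls made over all genes tested. The shares of all genes that rose and fell are those given above. They were 12% and 8.61% in EB against ES cells and 5.45% and 6.43% from EB to CB. In CB they were 6.19% and 3.61% against ES cells and 12.1% and 11.6% against E17.5 hearts. From E17.5 to P1 they were 2.08% and 3.05%, from P1 to adult 15.6% and 14.7%, and from E17.5 to adult 18.1% and 18%. The heparan sulphate list, 32 of its 33 genes measured, holds the glypicans and syndecans that carry heparan sulphate, the enzymes that build and trim it, and FGF binding proteins. In EB against ES cells 15 of the 32 rose and 1 fell, with a median change of 0.59. Gpc3, a glypican, rose by 4.10 ± 0.24 (adjusted p = 4.58e-07), Hs6st2, a sulphotransferase, by 2.91 ± 0.35 (adjusted p = 7.86e-05), Sdc2, a syndecan, by 2.61 ± 0.20 (adjusted p = 2.5e-06), and Gpc6 by 2.55 ± 0.22 (adjusted p = 5.9e-06). From EB to CB, 2 rose and 10 fell; Gpc6 fell by 2.59 ± 0.22, Gpc3 fell by 2.27 ± 0.24 and Sulf1, which removes sulphate from the chains, fell by 1.96 ± 0.27. In CB against ES cells 8 rose and none fell (14 and 0 at an unadjusted limma p under 0.05), and against E17.5 hearts 5 rose and 9 fell, among them Flrt2, which fell by 2.82 ± 0.31. In the hearts 0 rose and 3 fell from E17.5 to P1 (4 and 6 at an unadjusted limma p under 0.05), 3 rose and 9 fell from P1 to adult, and 5 rose and 11 fell from E17.5 to adult. Over the last span Gpc3 fell by 3.95 ± 0.24 (adjusted p = 2.45e-07) and Hs6st2 fell by 2.21 ± 0.35 (adjusted p = 0.000331), while Extl1 rose by 2.02 ± 0.22 (adjusted p = 1.89e-05). The fibroblast list was higher in EB than in ES cells, with 6 of 8 genes called, and 6 of 8 also rose in each of the endothelium and epithelium lists. From EB to CB 2 of the 8 fibroblast markers fell. From E17.5 to adult 5 of the 8 fibroblast markers fell and 1 rose, and 5 of 6 epicardium markers fell. The part of fibroblasts or of these other cells in the heparan sulphate values was not tested.

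Of the ERK cascade list, 17 of 25 genes were measured; the others were not analysed here. In EB against ES cells 4 rose and 1 fell. The faller, Gab1, an adaptor that recruits PI3 kinase and Shp2, fell by 1.48 ± 0.17 (adjusted p = 7.06e-05) and rose by 1.44 ± 0.17 from EB to CB (adjusted p = 0.000183), where 2 others fell. Sos2, a Ras exchange factor, rose by 1.72 ± 0.29 in EB (adjusted p = 0.00105). In CB 1 gene rose against ES cells (Ptpn11, 0.93 ± 0.19) and 1 in CB against E17.5 hearts (Gab1, 0.93 ± 0.17), and none fell in either comparison (0 and 3 were lower, respectively, at an unadjusted limma p under 0.05). From E17.5 to P1 none of the 17 was called by limma (3 higher and 1 lower at an unadjusted p under 0.05). From P1 to adult 2 rose and 6 fell (15.6% and 14.7% of all genes), and from E17.5 to adult 5 rose and 5 fell (18.1% and 18%). Map2k1, the kinase MEK1, fell by 1.29 ± 0.19 over that span (adjusted p = 0.00017) and Braf rose by 1.14 ± 0.23 (adjusted p = 0.00208).

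The list of 18 other ERK targets and brakes was measured in full. In EB against ES cells 4 rose and 2 fell: Dusp4, an ERK phosphatase, rose by 2.44 ± 0.25 (adjusted p = 2.38e-05) and Errfi1, an inhibitor of the EGF receptor, by 1.52 ± 0.32 (adjusted p = 0.00495), while Myc fell by 1.03 ± 0.25 (adjusted p = 0.0095). From EB to CB 1 rose and 1 fell, and in CB against ES cells Dusp4 alone rose (2.55 ± 0.25, adjusted p = 3.68e-05). Against E17.5 hearts 4 rose in CB and none fell (7 and 1 at an unadjusted limma p under 0.05), led by Dusp9, a phosphatase of ERK in ES cells (3.04 ± 0.34, adjusted p = 5.28e-05). In the hearts 2 rose and none fell from E17.5 to P1, with 4 and 0 at an unadjusted limma p under 0.05 (Dusp1 by 1.24 ± 0.22 and Egr1 by 1.20 ± 0.19), 3 rose and 5 fell from P1 to adult, and 5 rose and 4 fell from E17.5 to adult. Dusp7 (2.51 ± 0.29), Dusp1 (2.46 ± 0.22) and Errfi1 (2.06 ± 0.32) rose over the whole span and Myc fell by 2.00 ± 0.25. Dusp4 rose in EB where Spry4, Etv4 and Etv5 fell, so the ERK targets measured here did not share a direction.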

How the data were processed

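All 12 samples have gene-level and exon-level values, which the authors deposited on a log2 scale. RMA and Affymetrix Power Tools are the tools named in the submitters' processing notes; the sources used here give no versions or genome build. No further normalization was applied. Genes were named from the platform annotation: 21789 transcript clusters had 1 symbol, 1621 several and 12146 none, and the latter 2 kinds were left out. For 1015 genes with several clusters the one with the highest mean was tested, giving 19920 genes. R 4.3.3 with limma 3.58.1 (lmFit, eBayes) fitted 6 group means over 12 arrays, leaving 6 residual degrees of freedom (prior 6.18). The splicing index was fitted likewise for 197783 probe sets of the 15108 genes with at least 4, leaving out 218 identical to their gene, with a level filter at percentile 50.

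The members, marker lists and pathway lists were chosen with earlier results of these data known. By rule, members called with non-overlapping arrays are given in every array, the others by range, and at most 4 called genes of a pathway list per comparison. Alternatives were the replicate block, a level filter, quantile normalization, an intensity trend, the exon-level median, all clusters uncollapsed, and each array left out; for the index, no level filter or one at the 70th percentile, another base, and diffSplice. The fit was also run on simulated data with independent noise and known added changes. Such data hold no differences in cell types or array runs, so they do not bear on those. The number of arrays limits the precision. Promoters came from RefSeq. Input was read with the R package data.table (1.17.8), and summaries and figures used Python 3.11.15 with numpy 2.4.6, pandas 2.3.3 and matplotlib 3.10.9.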

Additional observations from a re-analysis of the deposited data

How the results depend on the processing

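Of the 65 calls on members, 37 held in every alternative run for them, 28 were lost in at least 1, and none was reversed. Counts of called members stayed within 1.5 times the stated count in the replicate block, intensity trend, exon-level median and uncollapsed-cluster settings, in all 7 comparisons. The exception among the other settings was E17.5 to P1, with 5 called members in place of 2 under both the median-level filter and quantile normalization. Leaving out each array in turn gave 1 to 7 calls there, 7 to 13 from EB to CB, 7 to 15 in CB against E17.5 hearts, 9 to 13 in EB against ES cells, 4 to 7 in CB against ES cells, 7 to 11 from P1 to adult and 10 to 15 from E17.5 to adult. For Fgfr1 and Fgfr2 probe sets from P1 to adult, in place of 1 call, the replicate block and the other-probe-set base gave 0. No filter gave 2 calls, without probe set 10570984, and diffSplice gave 2 with it. Leaving out arrays gave 0 to 1. From E17.5 to adult, no filter gave 6, the 70th percentile 0, and leaving out arrays 0 to 2. With the replicate block the gene-level counts were 12, 11, 6, 2, 8, 13 and 12 in the order of the report, and 1 call was lost (Fgf14 in CB against E17.5 hearts). The numbers do not pair the samples: over 15 pairs of groups, deviations of same-numbered arrays correlated across genes at -0.18 to 0.29, with 2 above 0.1. With 2 arrays a group, leaving 1 out rests on the spread of the other groups.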
